A study of Mus musculus with 11 samples.

Results

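The genes described here encode the proteasome, the protease complex that degrades proteins marked with ubiquitin. They were chosen by name, as the Psma to Psmg genes without the interferon-inducible Psmb8, Psmb9 and Psmb10, and by a level of at least 1 FPKM (fragments per kilobase of transcript and sequenced total) in at least 3 of 11 libraries. Of 45 genes of these names in a table of 24320 genes, 43 met that level. The members with the lowest values, Psmf1 (8.42 to 12.8 FPKM), Psmd10 (9.85 to 16.99), Psmd9 (8.63 to 21.3) and Psme4 (10.3 to 22.4), reached it in all 11 libraries. Below it lay Psma8 (0.0483 to 0.517 FPKM), an alpha subunit of the testis, and Psmb11 (0.0487 to 0.216), a catalytic subunit of the thymus, with 0 libraries at 1 FPKM. Every member therefore passed the level in every group.

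RNA was sequenced from normal mouse brain (3 libraries) and from brain tumors made in newborn mice by injecting plasmids into the right lateral ventricle (4 NRAS and 4 PDGFB libraries). All tumor plasmid mixes held the Sleeping Beauty transposase, which inserts plasmid genes into host DNA, firefly luciferase and the SV40 large T antigen, which binds p53 and Rb. To these was added either NRAS G12V, an active form of the small GTPase NRAS, or PDGFB, a growth factor. Tumors were dissected by their GFP signal at a middle stage of growth; the sources used here name neither the promoters of the plasmid genes nor the age at dissection. The normal brain label is wild-type control, with no plasmid named. Strain labels read B6 in 10 samples and FVB in normal brain 3, while the series text names FVB. Normal brain 1 carries NRAS tumor 2 as its match in the title, and normal brain 3 carries PDGFB tumor 1; whether the same animal is meant is not said. Since the labels do not name separate animals, p-values measure only the spread between these samples.

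The 26S proteasome is a barrel, the 20S core, capped by 19S regulatory particles. Rings of alpha subunits form the gate of the barrel and rings of beta subunits hold its active sites. The 19S base contains a ring of ATPases that unfold substrates, and the 19S lid removes ubiquitin. Dedicated chaperones assemble the parts, and alternative activators can replace the 19S cap. In the brain, as elsewhere, the complex clears damaged and short-lived regulatory proteins, and interferon replaces its constitutive catalytic subunits by inducible ones in the immunoproteasome.

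Library depth in reads is unknown, since only FPKM was deposited. Comparing the smallest steps of low values, libraries ranged from 0.776 to 1 of the deepest. Normal brains had 0.776 to 0.814, PDGFB tumors 0.85 to 0.89 and NRAS tumors 0.931 to 1, so that depth by this measure and group cannot be told apart. Genes at 1 FPKM or more numbered 12705 to 13923 per library. Nras was 82.0 to 154 FPKM in NRAS tumors and 31.7 to 42.9 in PDGFB tumors, against at most 17.5 in normal brain. Pdgfb was 745 to 1564 FPKM in PDGFB tumors against 6.12 to 7.19 in normal brain. Neuron markers, summed over 12 genes, were 3002 to 3761 FPKM in normal brain, 325 to 1602 in NRAS tumors and 158 to 837 in PDGFB tumors, with 0 of them listed at 0 in any library. Of these 12 genes, 11 fell in NRAS tumors and 12 in PDGFB tumors. The sum of 12 cell cycle genes went the other way, 50.2 to 52.4 FPKM in normal brain, 314 to 973 in NRAS tumors and 859 to 1363 in PDGFB tumors, and 12 of 12 rose in each model. Markers of the choroid plexus summed to 828.7 to 2045 FPKM in normal brain, 1.32 to 38.1 in NRAS tumors and 1.10 to 811 in PDGFB tumors. NRAS tumor 2 had the highest neuron sum (1602 FPKM) and the lowest cell cycle sum (314 FPKM) of the 8 tumors. In bulk tissue, fewer cells of a type and less RNA per cell cannot be told apart, and the part of cell composition in the results below was not tested.

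The title numbers of the samples fall in 2 series. Numbers 1834 to 1838 hold the 3 normal brains and NRAS tumors 1 and 2, and numbers 2038 to 2046 hold NRAS tumors 3 and 4 and all PDGFB tumors. The labels do not say what the numbers mean. No series holds both PDGFB tumors and normal brain, so that for this comparison series and model cannot be told apart without the NRAS tumors.

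Proteasome genes were higher in both tumor models than in normal brain, by a moderate amount. In NRAS tumors 26 of the 43 rose and 0 fell, with a median log2 fold change of 0.48 (1.40-fold). In PDGFB tumors 25 rose and 0 fell, with a median of 0.48 (1.39-fold). Only the genes of the activator PA28, Psme1 and Psme2, were higher in NRAS than in PDGFB tumors by the test, and 0 were lower (4 higher and 2 lower at an unadjusted p under 0.05). Fold changes here are differences of mean log2(FPKM + 1), which understates the change of low genes, and calls rest on limma with Benjamini-Hochberg adjustment over 14491 genes and a threshold of 0.05.

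Among all genes tested, 32.0% rose and 30.3% fell in NRAS tumors (62.3% in either direction), and 29.3% rose and 29.2% fell in PDGFB tumors (58.5%). The share of members that changed, 60.5% and 58.1%, was thus near the share among all genes, while each call among the members was in the higher direction. The median log2 fold change of all genes was 0.01 in NRAS tumors and 0.04 in PDGFB tumors. At an unadjusted p under 0.05, 33 members were higher and 0 lower in NRAS tumors, and 29 higher and 0 lower in PDGFB tumors. Fold changes were above 0 for 42 members in NRAS tumors and for 40 in PDGFB tumors. The lowest FPKM of the NRAS tumors exceeded the highest of normal brain in 26 members (33.2% of all genes), and the opposite held in 0 (31.9% of all genes). For PDGFB tumors these counts were 30 (33.8%) and 0 (32.0%).

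The 2 comparisons share the same 3 normal brains. Side by side, 22 members rose in both models, 4 in NRAS tumors alone (Psma1, Psma5, Psme1 and Psme2), 3 in PDGFB tumors alone (Psmd3, Psmd6 and Psme3) and 14 in neither. Of these 7 genes, only Psme1 and Psme2 also passed the test between the models.

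The calls depended on single libraries and on the number series. The count for NRAS tumors, of 43 members, was 13 without normal brain 2 (27.6% of all genes) and 17 without normal brain 3 (27.9%). It was 11 with the number series as a covariate (26% of all genes). Within numbers 1834 to 1838 it was 5 (23.6% of all genes), namely Psmd11, Psme1, Psme2, Psmg1 and Psmg4. The count for PDGFB tumors was 14 without normal brain 2 (25.4% of all genes). With the covariate it was 3 (17% of all genes), namely Psmd9, Psmg1 and Psmg2. In the settings that use the series, the share of members that rose was thus not above that of all genes. With the covariate the median log2 fold change of the members was 0.38 and 0.24 in NRAS and PDGFB tumors. That of all genes was 0.02 and -0.06. Between the models, 5 members were higher in NRAS tumors without NRAS tumor 2 (Psma1, Psma3, Psmd10, Psme1 and Psme2) and 4 with the covariate. Without NRAS tumor 4, PDGFB tumor 1 or PDGFB tumor 3, 1 was (Psme1). Of all genes, 15.5% were higher without NRAS tumor 2, 14.9% with the covariate, and 10.7% to 11.8% in the last 3 settings.

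**Figure D1:**
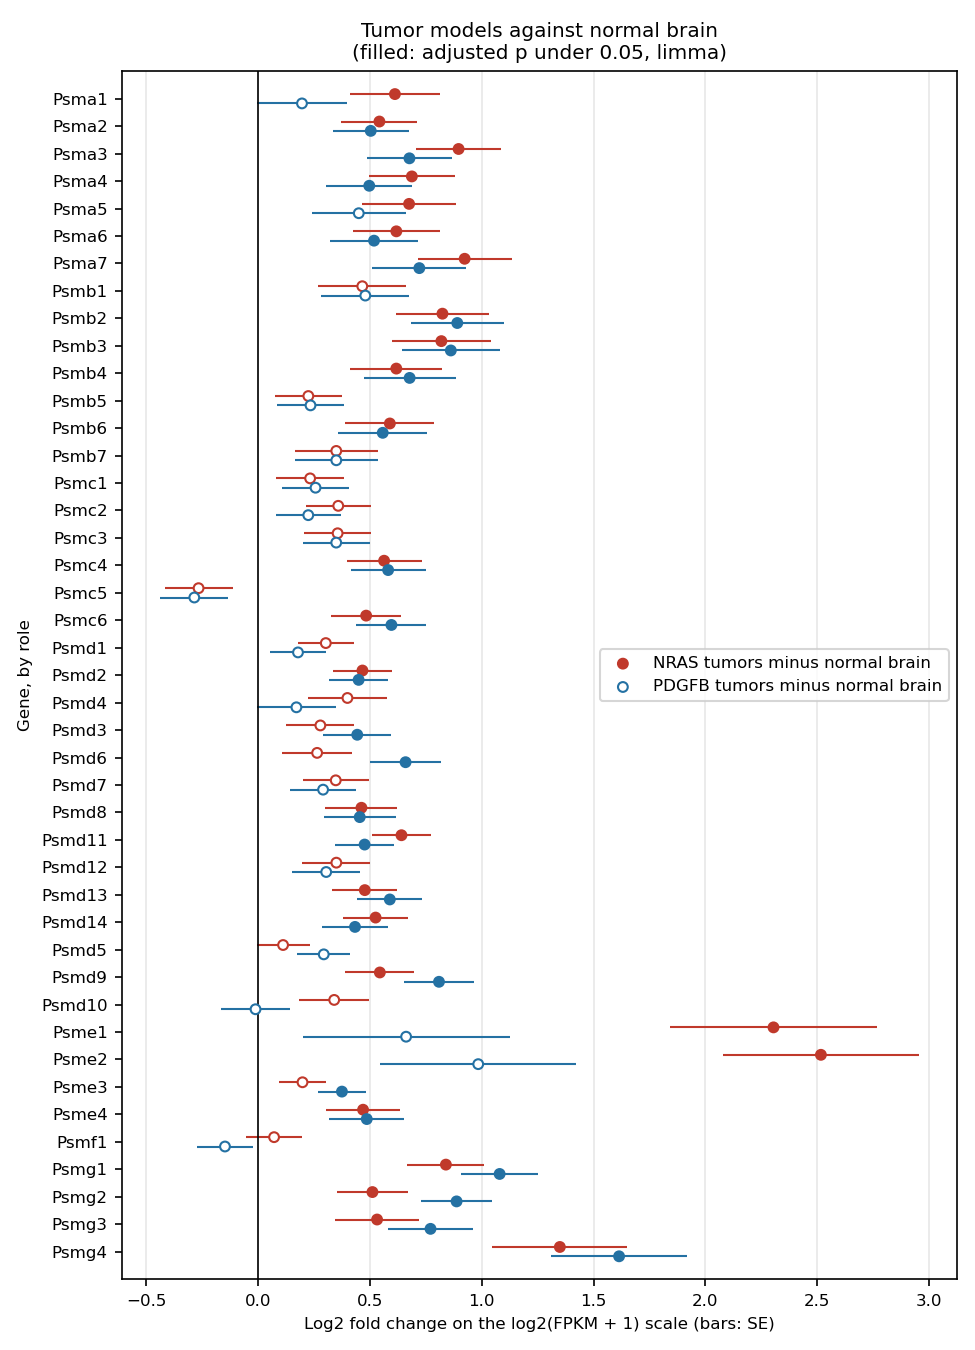
Log2 fold change (x axis, from log2(FPKM + 1)) of each of the 43 genes (y axis, by role) in NRAS tumors (red) and PDGFB tumors (blue) against normal brain; bars are standard errors and filled points passed an adjusted p of 0.05 in limma. Nearly all points lie right of 0, Psmc5 lies left of it in both models, and Psme1 and Psme2 stand far out in NRAS tumors alone.

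By library, the median difference of the 43 genes to the mean of normal brain was 0.57, 0.16, 0.66 and 0.51 (log2) in NRAS tumors 1 to 4. For the PDGFB tumors it was 0.32, 0.53, 0.38 and 0.78 in the same order, whereas normal brains 1 to 3 had 0.13, -0.09 and -0.04. NRAS tumor 2 lay closest to normal brain among the tumors and PDGFB tumor 4 farthest. In normal brain 1, 40 of the 43 genes were above the normal mean, against 6 and 9 in normal brains 2 and 3. The summed FPKM of the 43 genes ran from 2798 to 3272 in normal brain, 3356 to 5421 in NRAS tumors and 3559 to 5046 in PDGFB tumors. NRAS tumor 2 and its titled match, normal brain 1, were near each other: 28 genes were higher and 15 lower in the tumor, with a median of 0.03. PDGFB tumor 1 exceeded its titled match, normal brain 3, in 40 genes and lay below it in 3, with a median of 0.36. These are single pairs and carry no test.

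**Figure D2:**
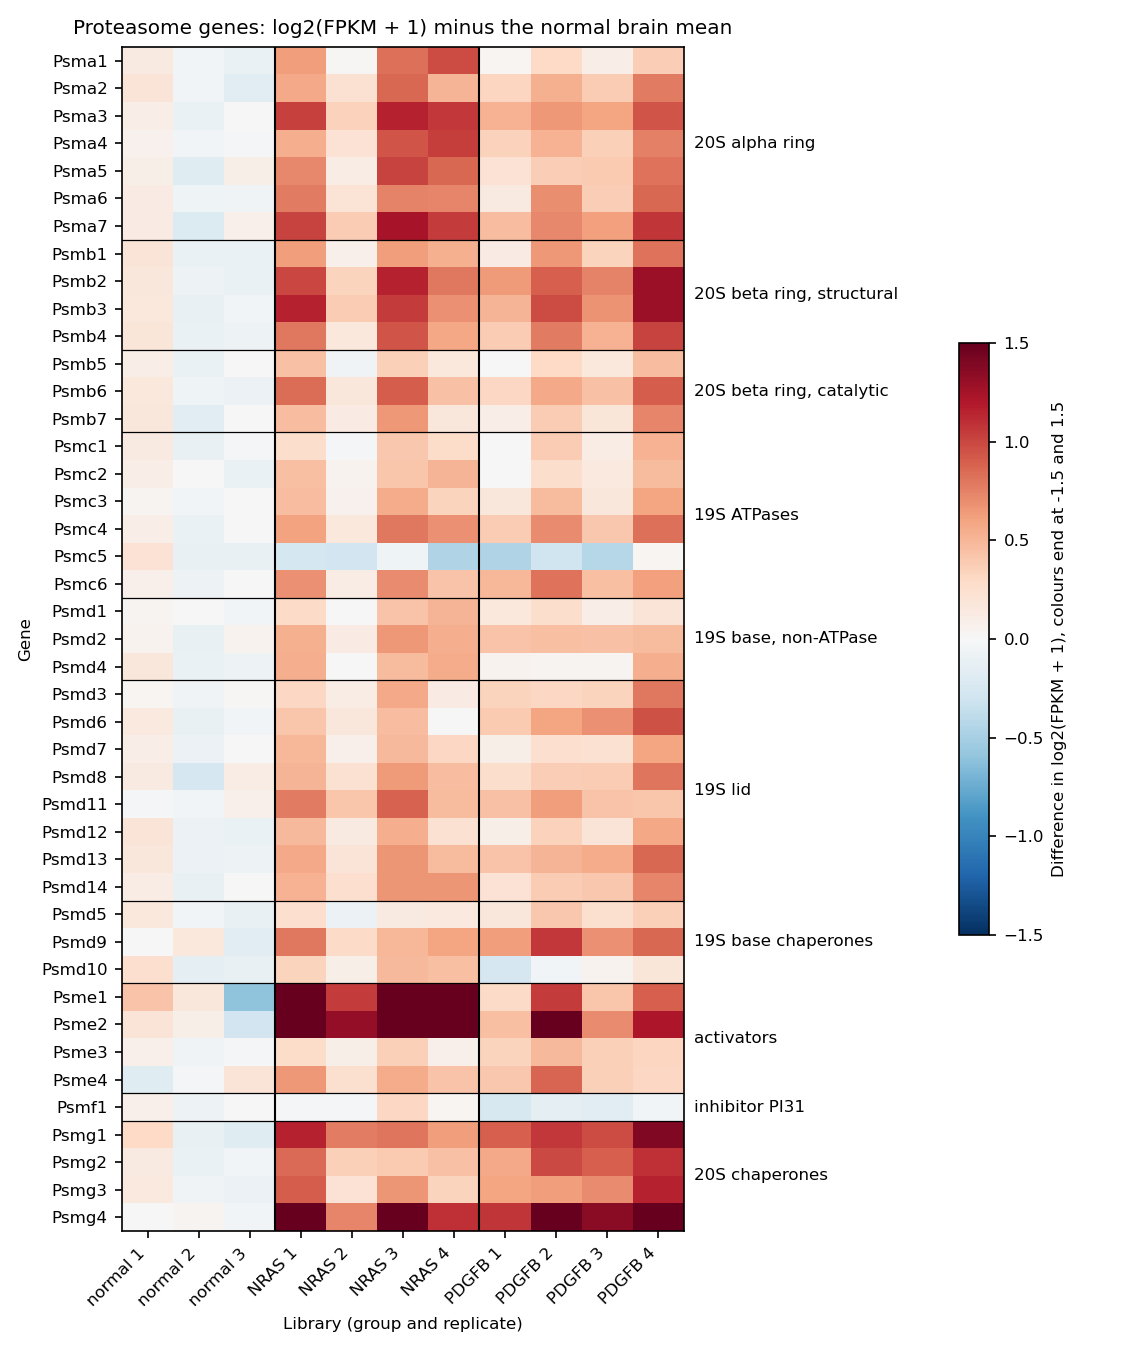
Difference of log2(FPKM + 1) to the normal brain mean (color, ending at -1.5 and 1.5) for the 43 genes (rows, by role) in 11 libraries (columns, by group and replicate). Most rows are red across the tumors and palest in NRAS tumor 2, and the rows of Psme1 and Psme2 are darkest in NRAS tumors.

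The order of levels among the members changed little in PDGFB tumors and more in NRAS tumors. FPKM is scaled by length, so that levels can be set side by side between genes. In normal brain the 20S core genes ran from 71.4 FPKM (Psma5) to 177 FPKM (Psmb7) with a median of 103. The 19S particle genes ran from 33.6 FPKM (Psmd11) to 141 FPKM (Psmc5) with a median of 70.5. The 20S chaperones lay lower, between 11.9 and 19.7 FPKM. Medians of the 20S core and the 19S particle were 167 and 98.9 FPKM in NRAS tumors, and 163 and 95.8 in PDGFB tumors. Across the 43 genes, which are not independent replicates, group means of normal brain and PDGFB tumors ranked with a Spearman correlation of 0.953. It was 0.844 between normal brain and NRAS tumors and 0.884 between the models. In NRAS tumors the means of Psme1 (30.0 FPKM in normal brain, 172 in NRAS tumors) and Psme2 (20.2 and 138) moved above the 19S median.

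In the 20S alpha ring, 7 of 7 genes rose in NRAS tumors (median log2 fold change 0.67) and 5 of 7 in PDGFB tumors (0.50). Of all genes, 32.0% and 29.3% rose. Psma7, a subunit of the outer ring on chromosome 2 at 180036367 to 180042464 of GRCm38.p6, showed the ring's largest change. Its FPKM was 110, 87.2 and 106 in normal brains, 205, 132, 239 and 209 in NRAS tumors, and 139, 167, 155 and 213 in PDGFB tumors, each in replicate order as in all such sentences. Each tumor library lay above each normal brain, and NRAS tumor 2 was the lowest of the tumors. The log2 fold change of Psma7 was 0.92 ± 0.21 (SE, limma adjusted p = 0.0032) in NRAS tumors and 0.72 ± 0.21 (adjusted p = 0.012) in PDGFB tumors.

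Psma3 rose by 0.90 and 0.68 in NRAS and PDGFB tumors, Psma4 by 0.69 and 0.50, Psma6 by 0.62 and 0.52, and Psma2 by 0.54 and 0.50. Psma6 had 111, 96.8 and 97.7 FPKM in normal brains, 176, 117, 171 and 169.8 in NRAS tumors, and 112, 166, 132 and 186 in PDGFB tumors. NRAS tumor 2 stood far below the other NRAS tumors for Psma6, and no tumor was below normal brain. With the number series as a covariate, the value of Psma4 in PDGFB tumors turned to -0.11, which is no longer a call. Psma1 had 88.8, 78.9 and 75.5 FPKM in normal brains, 125, 82.2, 144 and 160 in NRAS tumors, and 82.2, 99.5, 86.5 and 105 in PDGFB tumors. Its groups overlapped, it rose in NRAS tumors (0.61, adjusted p = 0.021), and its value in PDGFB tumors was 0.20 (adjusted p = 0.43). Between the models Psma1 differed by 0.42 with an adjusted p of 0.13. Without NRAS tumor 2, the lowest of the 4, that difference was 0.61 (adjusted p = 0.0055, with a range of 0.0055 to 0.308 over all alternatives). Psma5 rose in NRAS tumors (0.67, adjusted p = 0.016), with 0.45 in the PDGFB tumors (adjusted p = 0.088).

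The beta ring holds structural and catalytic subunits. Of the 4 structural genes, Psmb2, Psmb3 and Psmb4 rose in both models, by 0.82, 0.82 and 0.62 in NRAS tumors and by 0.89, 0.86 and 0.68 in PDGFB tumors. Psmb1 had 0.47 (adjusted p = 0.058) and 0.48 (adjusted p = 0.055). Psmb2 (chromosome 4, 126677637 to 126709715) had 111, 93.6 and 92.2 FPKM in normal brains, 199, 125, 220.3 and 172 in NRAS tumors, and 154, 184, 166 and 240.1 in PDGFB tumors. No tumor value of Psmb2 lay within the range of normal brain.

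Of the 3 constitutive catalytic genes, 1 rose in each model, namely Psmb6, which encodes the caspase-like active site. That share is near the one among all genes, of which 32.0% rose in NRAS and 29.3% in PDGFB tumors. Psmb6 had 118, 101 and 99.4 FPKM in normal brains, 189, 119.5 (NRAS tumor 2), 199.7 and 143 in NRAS tumors, and 131, 158, 144 and 199 in PDGFB tumors. It rose by 0.59 (adjusted p = 0.024) and 0.56 (adjusted p = 0.032) in NRAS and PDGFB tumors, and its tumor values lay above all normal brains. Psmb5, the chymotrypsin-like site (chromosome 14, 54614120 to 54617995), had 111, 96.7 and 104 FPKM in normal brains, 141, 100.1, 133 and 116 in NRAS tumors, and 104, 128, 116 and 144 in PDGFB tumors. Its groups overlapped, and the log2 fold changes were 0.22 ± 0.15 (adjusted p = 0.21) and 0.23 ± 0.15 (adjusted p = 0.20). Psmb7, the trypsin-like site, had 198, 157 and 177 FPKM in normal brains, 244, 192, 277 and 198 in NRAS tumors, and 189, 230.4, 201 and 293 in PDGFB tumors. Its changes were 0.35 in each model (adjusted p = 0.12 and 0.13), with overlapping groups. Between the models the 3 genes differed by -0.01 to 0.03, and none passed the test. Processed pseudogenes of Psmb5, Psmb6 and Psmb7 exist in the GENCODE annotation, and whether reads were split with them is not known here.

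Of their inducible counterparts, Psmb8 rose by 5.76 and 2.85 in NRAS and PDGFB tumors and Psmb9 by 5.79 and 2.25, while Psmb10 rose by 1.69 in NRAS tumors and had 0.28 in the PDGFB tumors (adjusted p = 0.60). Mean FPKM of Psmb8 was 2.54 in normal brain, 256 in NRAS tumors and 33.3 in PDGFB tumors, beside 104, 122 and 123 for Psmb5. Psmb8 stood at 2.71%, 2.07% and 2.5% of the FPKM of Psmb5 in normal brains, 202%, 39.0%, 340% and 216% in NRAS tumors, and 12.7%, 66.6%, 12.7% and 13.9% in PDGFB tumors. The groups did not overlap between normal brain and either model, while PDGFB tumor 2 exceeded NRAS tumor 2. Of 9 ratios compared (inducible over constitutive partner, 3 pairs in 3 comparisons), 8 had an adjusted p of 0.0642 and the ratio of Psmb10 to Psmb7 in PDGFB tumors against normal brain had 0.80, by two-sided exact permutation tests. With 3 against 4 libraries such a test cannot give an unadjusted p below 0.0571.

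**Figure D3:**
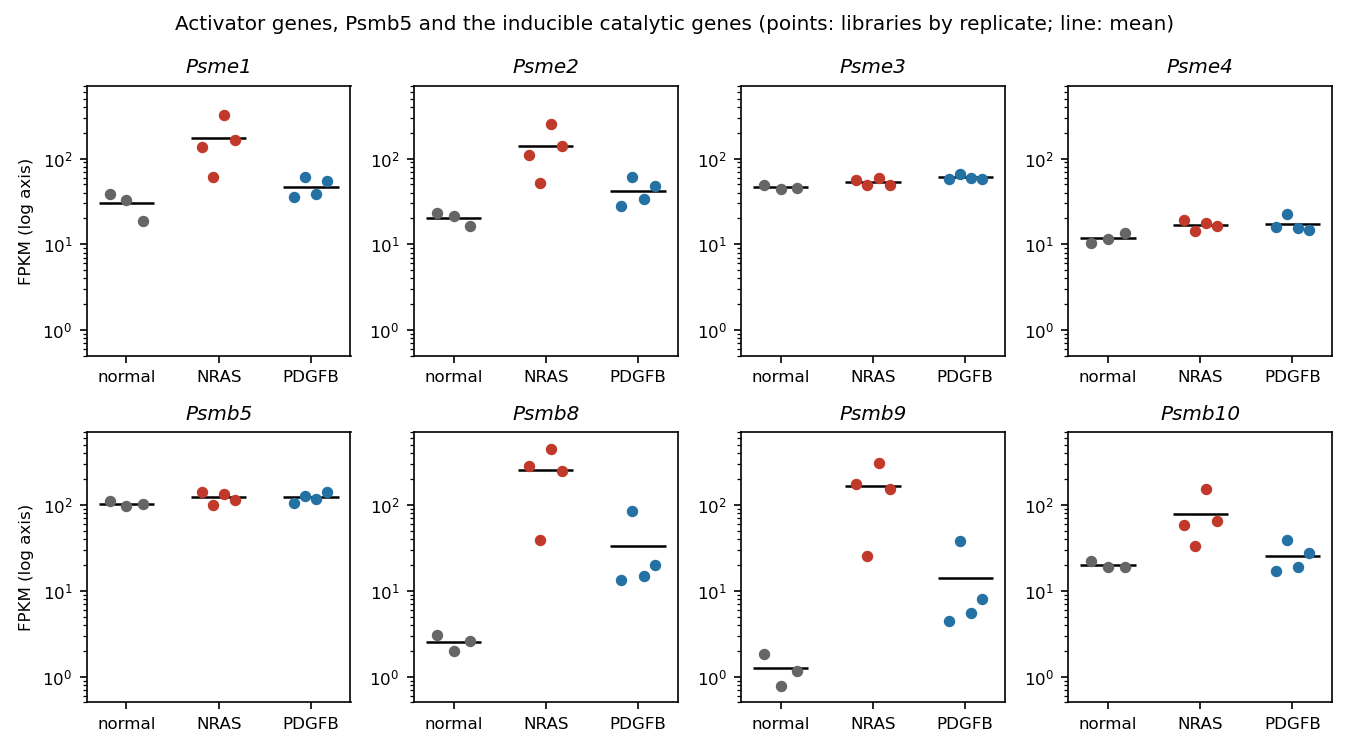
FPKM on a log axis for the activator genes Psme1 to Psme4, the constitutive catalytic gene Psmb5 and the inducible catalytic genes Psmb8 to Psmb10 in normal brain, NRAS tumors and PDGFB tumors; points are libraries in replicate order and lines are group means. Psme1 and Psme2 rise in NRAS tumors to 60.5 to 325 and 51.3 to 251 FPKM, beside Psmb8, while Psme3, Psme4 and Psmb5 stay within a narrow band.

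Activators dock on the 20S core in place of the 19S cap. Psme1 and Psme2 encode the alpha and beta subunits of PA28, an activator that interferon induces, although the naming rule places them with the constitutive subunits. They lie within 10 kilobases of each other on chromosome 14, Psme1 at 55578494 to 55581527 and Psme2 at 55587440 to 55591101. Psme1 had 38.9, 32.5 and 18.5 FPKM in normal brains, 138, 60.5, 325 and 164 in NRAS tumors, and 35.2, 60.3, 38.4 and 54.3 in PDGFB tumors. All NRAS tumors lay above all other libraries, NRAS tumor 3 was the highest, and PDGFB tumor 2 (60.3) reached nearly the level of NRAS tumor 2 (60.5). Its log2 fold change was 2.30 ± 0.46 in the NRAS tumors (adjusted p = 0.0016) and 0.66 ± 0.46 in the PDGFB tumors (adjusted p = 0.24), and the models differed by 1.64 ± 0.43 (adjusted p = 0.017).

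Psme2 had 23.0, 21.3 and 16.2 FPKM in normal brains, 109, 51.3, 251 and 141 in NRAS tumors, and 27.7, 60.4, 33.4 and 47.7 in PDGFB tumors. Here PDGFB tumor 2 exceeded NRAS tumor 2, so that the models overlapped, while both lay above normal brain. The log2 fold change of Psme2 was 2.52 ± 0.44 in the NRAS tumors (adjusted p = 0.0007) and 0.98 ± 0.44 in the PDGFB tumors (adjusted p = 0.075), and the models differed by 1.53 ± 0.41 (adjusted p = 0.018). That last call was lost without NRAS tumor 4, PDGFB tumor 1 or PDGFB tumor 3 (adjusted p from 0.00122 to 0.0527 over all alternatives). With the number series as a covariate, the values of Psme1 and Psme2 in PDGFB tumors turned to -0.67 and -0.33, and the differences between the models were 2.31 and 2.19. A paralog of Psme2 on chromosome 11, Psme2b, was at most 4.08 FPKM. Among all genes tested, 14.3% were higher and 12.2% lower in NRAS than in PDGFB tumors, 26.6% in all, against 2 (4.65%) of the members.

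The interferon response moved with these genes. The sum of 14 interferon response genes was 119 to 170 FPKM in normal brain, 4342, 893, 7765 and 4894 in NRAS tumors 1 to 4, and 397, 1255, 439 and 542 in PDGFB tumors 1 to 4. NRAS tumor 3 and PDGFB tumor 2, the highest of their groups, were also the highest of their groups for Psme1 and Psme2. All 14 rose in NRAS tumors, 5 rose in PDGFB tumors and all 14 were higher in NRAS than in PDGFB tumors. Markers of monocytes and macrophages (10 genes) summed to 53.9 to 60.9 FPKM in normal brain, 222 to 1967 in NRAS tumors and 81.9 to 135 in PDGFB tumors. Markers of T and NK cells (9 genes) summed to 1.73 to 7.02, 7.99 to 194 and 0.570 to 1.73 FPKM in that order. Up to 6 of the 9 were listed at 0 in a normal brain and up to 4 in a PDGFB tumor. Most of the sum in normal brains was Cd4 (1.45, 1.80 and 6.86 FPKM), while Cd3e and Cd3d were at 0 there. The mean of Cd4 was 3.37 FPKM in normal brain and 0.356 in PDGFB tumors. The part of monocytes, macrophages, T cells and NK cells in the levels of Psme1 and Psme2 was not tested.

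Psme3 encodes the nuclear activator PA28 gamma. It had 48.9, 44.5 and 45.5 FPKM in normal brains, 56.2, 49.2, 59.5 and 48.6 in NRAS tumors, and 58.5, 65.3, 59.5 and 57.9 in PDGFB tumors. It rose in PDGFB tumors, all of which lay above normal brain (0.37 ± 0.11, adjusted p = 0.011), and had 0.20 in the NRAS tumors (adjusted p = 0.13). Psme4, which encodes PA200, had 10.3, 11.6 and 13.7 FPKM in normal brains, 18.99, 14.1, 17.8 and 16.2 in NRAS tumors, and 15.9, 22.4, 15.4 and 14.9 in PDGFB tumors. It rose by 0.47 (adjusted p = 0.030) and 0.49 (adjusted p = 0.027), with no overlap between tumors and normal brain.

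Psmf1, the gene of the proteasome inhibitor PI31, did not pass in either model. Its FPKM was 10.8, 9.63 and 10.1 in normal brains, 9.94, 9.999, 12.8 and 10.4 in NRAS tumors, and 8.42, 9.15, 8.89 and 9.89 in PDGFB tumors. All NRAS tumors lay above all PDGFB tumors, but the difference of 0.22 did not pass (adjusted p = 0.19). Against normal brain the values were 0.07 and -0.15 (adjusted p = 0.64 and 0.33).

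In the 19S regulatory particle, 7 of 17 genes rose in NRAS tumors (median 0.36) and 9 of 17 in PDGFB tumors (0.43), against 11 and 9 of 14 for the core (0.62 and 0.51). The difference between these parts was not tested. Of all genes, 32.0% rose in NRAS tumors and 29.3% in PDGFB tumors. Among the 6 ATPases, Psmc4 (0.56 and 0.58) and Psmc6 (0.48 and 0.60) rose in both models, a share near that of all genes. Values of Psmc1, Psmc2 and Psmc3 lay between 0.22 and 0.36 and did not pass. Psmc5 was the only member with a negative value in both models, while Psmf1 and Psmd10 were negative in PDGFB tumors alone. FPKM of Psmc5 was 163, 129.2 and 129.8 in normal brains. It was 117, 114, 134 and 102 in NRAS tumors, and 102, 114, 104 and 143 in PDGFB tumors. Normal brain 1 was the highest library and the groups overlapped. Its values of -0.27 ± 0.15 and -0.29 ± 0.15 did not pass (adjusted p = 0.15 and 0.13). When small RNA genes were left out and libraries rescaled, Psmc5 passed as lower in both models (-0.42 and -0.44). Across the 11 libraries its correlation with the mean profile of the members was -0.11, where the next lowest were Psmf1 (0.274) and Psmd10 (0.641).

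Of the 3 other subunits of the base, Psmd2, a scaffold for ubiquitin receptors, rose in both models. It had 94.2, 83.7 and 93.8 FPKM in normal brains, 131, 98.6, 143 and 133 in NRAS tumors, and 122, 124, 123 and 127 in PDGFB tumors. These are changes of 0.47 (adjusted p = 0.010) and 0.45 (adjusted p = 0.013), with no overlap. The scaffold gene Psmd1 had 0.30 and 0.18, and Psmd4, whose product binds ubiquitin chains, had 0.40 and 0.17, and neither gene passed. Psmd4 was 94.7, 78.5 and 79.7 FPKM in normal brains, 123.5, 84.5, 117 and 124 in NRAS tumors, and 86.9, 86.6, 86.5 and 123.4 in PDGFB tumors, so that groups overlapped and PDGFB tumor 4 stood apart from its group.

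In the lid, 4 of 8 genes rose in NRAS tumors and 6 of 8 in PDGFB tumors, beside 32.0% and 29.3% of all genes. Psmd11 (chromosome 11, 80428615 to 80473248), which joins lid and base, had 32.9, 32.5 and 35.4 FPKM in normal brains, 58.5, 45.1, 62.8 and 47.1 in NRAS tumors, and 45.8, 52.2, 45.3 and 45.2 in PDGFB tumors. All tumors lay above normal brain, by 0.64 ± 0.13 (adjusted p = 0.0017) and 0.48 ± 0.13 (adjusted p = 0.0090). Psmd14, the enzyme that cuts ubiquitin from substrates, had 63.9, 54.5 and 58.8 FPKM in normal brains, 84.9, 70.5, 94.2 and 93.6 in NRAS tumors, and 68.7, 76.8, 78.6 and 98.2 in PDGFB tumors. It rose by 0.52 (adjusted p = 0.0094) and 0.43 (adjusted p = 0.025), again with no overlap.

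The lid gene Psmd13 had 46.0, 38.4 and 38.5 FPKM in normal brains, 61.1, 46.9, 65.5 and 57.2 in NRAS tumors, and 55.3, 58.6, 60.6 and 75.0 in PDGFB tumors, and it rose by 0.48 and 0.59 (adjusted p = 0.015 and 0.0051). Psmd8 had 88.5, 67.7 and 87.3 FPKM in normal brains, 115, 94.8, 126 and 112 in NRAS tumors, and 97.3, 104, 105 and 141 in PDGFB tumors, and it rose by 0.46 and 0.45 (adjusted p = 0.027 and 0.031). Both genes had all tumors above normal brain. Psmd7 (0.35 and 0.29) and Psmd12 (0.35 and 0.30) did not pass.

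Psmd3 and Psmd6 passed the test in PDGFB tumors and not in NRAS tumors. Psmd3 had 56.4, 53.4 and 56.0 FPKM in normal brains, 68.5, 59.6, 82.7 and 60.2 in NRAS tumors, and 69.9, 69.0, 69.8 and 96.1 in PDGFB tumors. All tumors exceeded normal brain, with 0.44 in the PDGFB tumors (adjusted p = 0.026) and 0.28 in the NRAS tumors (adjusted p = 0.13). Psmd6 (chromosome 14, 14112185 to 14120945) had 65.1, 54.2 and 57.2 FPKM in normal brains, 78.4, 66.0, 81.4 and 58.8 in NRAS tumors, and 77.4, 89.1, 95.1 and 115 in PDGFB tumors. It rose by 0.66 in the PDGFB tumors (adjusted p = 0.0043) and had 0.26 in the NRAS tumors (adjusted p = 0.17). The difference between the models, -0.40, did not pass for Psmd6 (adjusted p = 0.067).

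**Figure D4:**
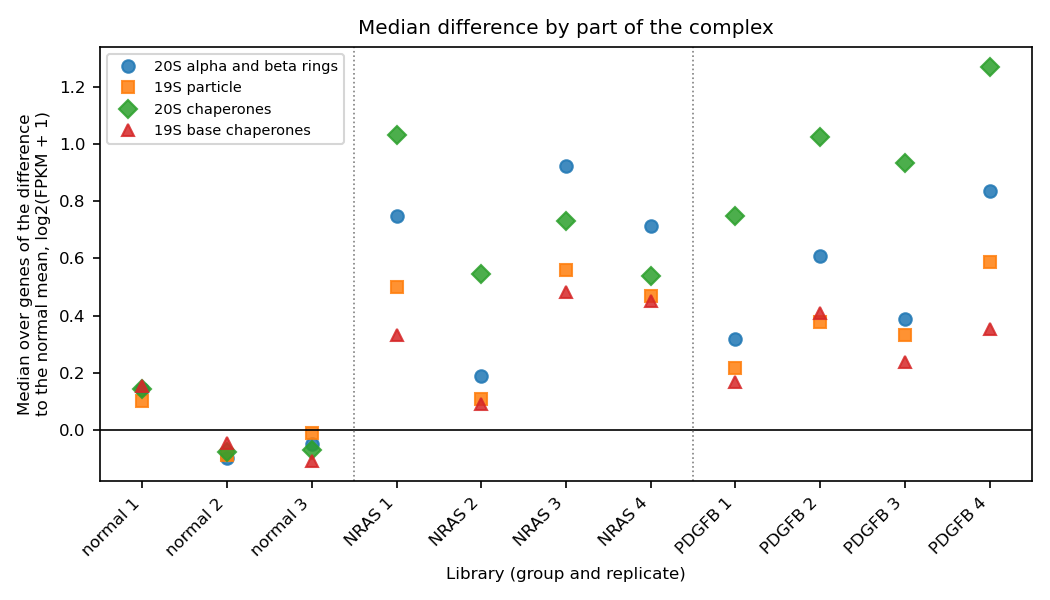
Median over genes of the difference in log2(FPKM + 1) to the normal brain mean (y axis) in each library (x axis) for the 20S core rings (14 genes), the 19S particle (17), the 20S chaperones (4) and the 19S base chaperones (3). The 20S chaperones are the highest of the 4 in every PDGFB tumor, and NRAS tumor 2 is the lowest tumor for the rings, the 19S particle and the base chaperones.

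The 4 Psmg genes, chaperones of 20S assembly, rose in both models. Psmg1 and Psmg2 encode the PAC1 and PAC2 proteins, which pair to build the alpha ring, and Psmg3 and Psmg4 encode PAC3 and PAC4, which form the other pair. Psmg4 (chromosome 13, 34162964 to 34178172) had the largest change of all members in PDGFB tumors. Its FPKM was 12.01, 12.3 and 11.6 in normal brains, 39.1, 20.5, 48.5 and 26.6 in NRAS tumors, and 26.2, 56.0, 31.9 and 47.2 in PDGFB tumors. No tumor was below 20.5 FPKM and no normal brain above 12.3. The log2 fold change of Psmg4 was 1.35 ± 0.30 in the NRAS tumors (adjusted p = 0.0029) and 1.61 ± 0.30 in the PDGFB tumors (adjusted p = 0.0010).

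Psmg1 (chromosome 16, 95979933 to 95990960) had 15.4, 11.3 and 10.8 FPKM in normal brains, 28.7, 21.8, 22.3 and 19.7 in NRAS tumors, and 23.9, 26.9, 25.2 and 33.9 in PDGFB tumors. It rose by 0.84 ± 0.17 (adjusted p = 0.0018) and 1.08 ± 0.17 (adjusted p = 0.0004), and its adjusted p stayed between 0.000319 and 0.0213 over all alternative settings of both comparisons. Psmg2 had 21.7, 18.4 and 19.1 FPKM in normal brains, 36.3, 25.4, 26.1 and 27.1 in NRAS tumors, and 29.7, 40.0, 37.3 and 43.3 in PDGFB tumors. It rose by 0.51 (adjusted p = 0.016) and 0.89 (adjusted p = 0.0008). Between the models the difference of Psmg2 was -0.38 (adjusted p = 0.081), and without NRAS tumor 1, the highest of its group, -0.49 (adjusted p = 0.024, with a range of 0.024 to 0.181 over all alternatives). Psmg3 had 17.1, 14.7 and 14.3 FPKM in normal brains, 29.6, 17.98, 24.7 and 19.5 in NRAS tumors, and 23.6, 24.1, 25.6 and 35.3 in PDGFB tumors, rising by 0.53 (adjusted p = 0.030) and 0.77 (adjusted p = 0.0048). In all 4 genes each tumor lay above each normal brain.

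**Figure D5:**
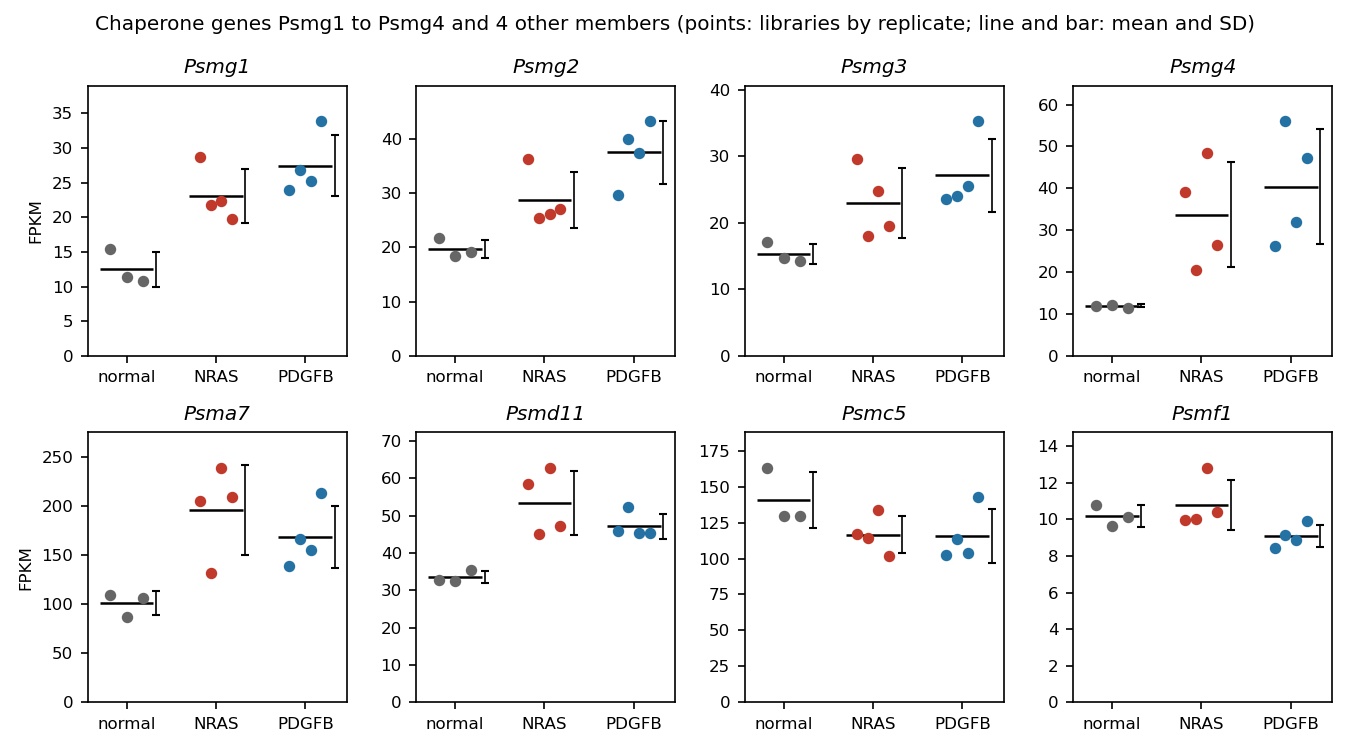
FPKM of the chaperone genes Psmg1 to Psmg4 and of Psma7, Psmd11, Psmc5 and Psmf1 in normal brain, NRAS tumors and PDGFB tumors; points are libraries in replicate order, lines are means and bars are SD. For the 4 chaperones, Psma7 and Psmd11 every tumor lies above every normal brain, while the groups of Psmc5 overlap and Psmf1 in tumors lies within 8.42 to 12.8 FPKM.

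Of the 3 chaperones of the 19S base, 1 rose in each model, a share near that of all genes (32.0% in NRAS and 29.3% in PDGFB tumors). Psmd9 (p27) rose in both, with 9.72, 10.98 and 8.63 FPKM in normal brains, 17.5, 12.1, 14.2 and 15.2 in NRAS tumors, and 15.6, 21.3, 16.3 and 18.5 in PDGFB tumors. Its changes were 0.54 (adjusted p = 0.010) and 0.81 (adjusted p = 0.0012), with no overlap. Psmd9 shares 1849 exon bases with a gene on the opposite strand, Gm26745, and since the strand of counting is not given, reads of these genes cannot be told apart. Exons of 11 members overlap another gene in the GENCODE annotation, most by fewer bases. Psmd10 (gankyrin) had 14.3, 10.6 and 10.96 FPKM in normal brains, 15.2, 12.7, 16.99 and 16.6 in NRAS tumors, and 9.85, 11.5, 12.4 and 13.7 in PDGFB tumors. Its values of 0.34 and -0.01 did not pass, nor did the difference between the models of 0.35 (adjusted p = 0.096). Psmd5 had 0.11 and 0.29 and did not pass either.

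Promoter windows of the members were read from RefSeq (GRCm38.p6), 250 bases before to 50 after each start, and were found for 36 of the 43 genes. Windows were searched on both strands for TGACNNNGC, the core of the antioxidant response element bound by NRF1 and NRF2 with small MAF proteins, for GAAA followed after any 2 bases by GAAA, the core of the interferon-stimulated response element bound by IRF proteins, and for CCAAT, the box bound by NF-Y. A match is a description of letters and not a binding site. The antioxidant core was present in 6 of the 36 genes, and in 1801 of 10608 tested genes with a window. CCAAT was present in 12 of the 36 (33.3%) against 42.6% of those tested genes, and the interferon core in 5 (13.9%) against 3.78%. The 5 matches to the interferon core are shown because they fall in Psme1 and Psmg4, 2 of the members with the largest changes, and also in members with smaller ones, down to Psmd4, which passed in neither model. Capitals mark the motif, on either strand.
Psme1: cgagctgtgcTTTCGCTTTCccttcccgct
Psmg4: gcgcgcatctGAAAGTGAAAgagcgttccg
Psmb3: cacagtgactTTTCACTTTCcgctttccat
Psmd9: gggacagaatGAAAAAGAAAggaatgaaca
Psmd4: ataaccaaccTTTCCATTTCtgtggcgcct
They lie at chr14:55578493-55578522, chr13:34162969-34162998, chr11:97703261-97703290, chr5:123228021-123228050 and chr3:95042675-95042704 in this order, the last on the minus strand. The windows of Psme2 held no match to any of the 3 motifs. Psme1 differed between the models by 1.64, and Psmg4 rose in both. A link between the interferon core and these changes was not tested.

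The antioxidant core is shown for 3 members, 2 catalytic subunits and the base chaperone Psmd9, since NRF1 is the known activator of proteasome genes when the complex is impaired.
Psmb5: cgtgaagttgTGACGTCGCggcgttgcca
Psmb6: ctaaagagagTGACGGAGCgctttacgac
Psmd9: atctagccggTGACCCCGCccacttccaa
They lie at chr14:54618024-54618052 on the minus strand, chr11:70525338-70525366 and chr5:123228149-123228177. The other 3 matches are in Psmc6, Psmd12 and Psme4. Of the 6 genes, Psmb6, Psmd9, Psmc6 and Psme4 rose in both models, and Psmb5 and Psmd12 passed in neither. Among all 43 members, 22 rose in both and 14 in neither. A link between the motif and the change was not tested.

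Of 11 genes for transcriptional control of the proteasome, 4 rose and 3 fell in NRAS tumors, and 4 rose and 2 fell in PDGFB tumors. Such shares are near those among all genes tested, of which 62.3% and 58.5% changed in either direction. Nfe2l1, which encodes NRF1, fell from a mean of 92.5 FPKM in normal brain to 66.4 in NRAS tumors (-0.50, adjusted p = 0.021), and to 49.9 in the PDGFB tumors (-0.88, adjusted p = 0.0010). Nfe2l2, which encodes NRF2, rose from 10.5 to 74.7 FPKM in NRAS tumors (2.69, adjusted p = 2.6e-06) and to 18.2 in PDGFB tumors (0.73, adjusted p = 0.0042), and the models differed by 1.96 (adjusted p = 7.6e-05). Their small MAF partner Maff rose by 3.25 and 2.41, and Mafk rose by 0.73 in NRAS tumors and had -0.23 in PDGFB tumors. Mafg, the small MAF gene with the highest mean in normal brain (21.5 FPKM), had -0.03 and -0.25 and passed in neither model. The NF-Y subunit gene Nfya rose from 8.49 FPKM to 20.2 and 22.6 (1.16 and 1.29), and Nfyc by 0.59 in PDGFB tumors. Nfyc had 0.27 in NRAS tumors and Nfyb had 0.06 and 0.10, and none of these passed. Nfe2l3 fell in both models (-1.16 and -1.502), and Ngly1, whose enzyme processes NRF1, fell by 0.41 in NRAS tumors.

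Of 9 proteasome partners outside these gene names, 4 rose and 2 fell in each model, beside 62.3% and 58.5% of all genes changed in either direction. Shfm1, which encodes the small lid subunit SEM1, rose from a mean of 146 FPKM to 269 in NRAS tumors (0.87, adjusted p = 0.0019) and to 336 in the PDGFB tumors (1.18, adjusted p = 0.00035). The ubiquitin receptor gene Adrm1 rose by 0.41 and 0.38 and the reductase gene Txnl1 by 0.45 and 0.49. Pomp, whose product completes the 20S core, rose in NRAS tumors (0.63, adjusted p = 0.029) and had 0.39 in the PDGFB tumors (adjusted p = 0.16). The genes of both deubiquitinases that dock on the 19S particle fell: Usp14 by 0.50 and 0.46, and Uchl5 by 0.40 and 0.68. Akirin2, which carries proteasomes into the nucleus, rose in PDGFB tumors (0.26, adjusted p = 0.039) and was lower in NRAS than in PDGFB tumors (-0.33, adjusted p = 0.022).

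Upstream of the proteasome, the ubiquitin gene Rps27a, which also encodes a ribosomal protein, rose by 1.13 in NRAS tumors and 1.52 in PDGFB tumors, and the main activating enzyme gene Uba1 rose by 0.40 and 0.43. Of 13 genes of the VCP segregase, which extracts ubiquitinated proteins, and of shuttles to the proteasome, 4 rose and 2 fell in NRAS tumors. In PDGFB tumors 6 rose and 3 fell. Among all genes tested, 62.3% changed in NRAS tumors and 58.5% in PDGFB tumors. Vcp itself rose by 0.35 (adjusted p = 0.036) and 0.39 (adjusted p = 0.022), its adaptor Faf2 by 0.46 and 0.45, and the shuttle Rad23b by 0.38 and 0.59. The shuttle Ubqln2 fell by 0.94 and 0.56, and Zfand2a, a proteasome-binding stress gene, by 0.47 and 0.84.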

How the data were processed

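RNA sequencing measured gene expression in 11 mouse brain libraries. The authors deposited 1 table of FPKM, with no read counts. Reads were handled with TopHat2 (version 2.0.13) and Cufflinks (version 2.2.1) on mm10, per the submitters' processing notes. The sources used here do not give their settings, the strand or the annotation. Since FPKM is relative to the library total, abundant transcripts can press down the values of the others. Small RNA genes (1317 rows) held 10.5% to 42.8% of a library's summed FPKM. Because FPKM divides by length, this is not their share of reads, which is unknown. Of 24347 rows, 27 with names turned into dates were left out.

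All 11 libraries entered 1 limma model (version 3.58.1 under R 4.3.3, with trended eBayes) of log2(FPKM + 1), a pseudocount of 1, over the 14491 genes that reached 1 FPKM in 3 or more libraries. P-values are two-sided and adjusted by Benjamini-Hochberg across these genes. The fit was also run on simulated data, whose outcome is not reported here. Its noise was drawn separately for each gene and library, so it cannot speak to effects of a library or number series. Ratios of 2 genes were compared by exact permutation tests. Positions, exon overlaps and promoters are from GRCm38.p6 (GENCODE M21, RefSeq), the same build as mm10.

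The members and lists were chosen with earlier results of these data known. Values in every library are given for the 4 members with the largest and the 4 with the smallest change among those called in each comparison, for the catalytic and activator genes, and for members with a library far from its group. Genes of other lists come from the up to 4 called with the largest change in each comparison, not all of them printed; some genes of the ubiquitin list are not reported here, and no count is given for it. Psma1, Psma5, Psmc5, Psmd6, Psmd10 and Psmg3 were chosen after their values were seen. So were the genes Adrm1, Mafg, Nfyb, Nfyc, Ngly1, Vcp and Psme2b, and the sequences shown. Alternatives were other pseudocounts, filters and scalings, leaving out small RNA genes or 1 library, the replicate number as a block and the title number series.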

Additional observations from a re-analysis of the deposited data

Results flagged for a closer look

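In 7 of 86 tumor groups of 4 libraries, 1 library stood far from the other 3 of its group by Dixon's gap test, which chance alone passes in about 1 in 20 groups. In PDGFB tumors, Psmd4 was 123.4 FPKM in PDGFB tumor 4 against 86.5 to 86.9 in the others (gap over range 0.989), and Psmd3 was 96.1 in the same tumor against 69.0 to 69.9 (0.964). PDGFB tumor 2 stood high for Psmd11 (52.2 FPKM against 45.2 to 45.8, 0.917) and for Psme4 (22.4 against 14.9 to 15.9, 0.869). In NRAS tumors, Psma6 was low in NRAS tumor 2 (117 FPKM against 170 to 176, 0.902), Psmg2 was high in NRAS tumor 1 (36.3 against 25.4 to 27.1, 0.845) and Psmf1 was high in NRAS tumor 3 (12.8 against 9.94 to 10.4, 0.842).

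The change against normal brain differed between the models, by the limma contrast of NRAS with PDGFB tumors, for Psme1 (1.64) and Psme2 (1.53).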

How the results depend on the processing

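Psmd11, Psme1, Psme2, Psmg1 and Psmg4 rose in NRAS tumors and Psmd9, Psmg1 and Psmg2 in PDGFB tumors under every alternative run, and Psme1 was higher in NRAS than in PDGFB tumors under every one. When 1 library was left out, the count of members that rose in NRAS tumors (26) ran from 13 to 34, and 0 fell. The count in PDGFB tumors (25) ran from 14 to 30, and 0 to 1 fell. That of members higher in NRAS than in PDGFB tumors (2) ran from 1 to 5, with 0 to 2 lower. In these runs 27.6% to 33.4% of all genes rose in NRAS tumors and 25.3% to 31% in PDGFB tumors. Between the models, 10.7% to 15.5% of all genes were higher in NRAS tumors. The number series as a covariate gave 11, 3 and 4, beside 26%, 17% and 14.9% of all genes. Numbers 1834 to 1838 alone gave 5, beside 23.6% of all genes. With small RNA genes left out, 1 member fell in each comparison with normal brain (Psmc5) and 1 was lower in NRAS than in PDGFB tumors (Psmd6); with quantile normalization 1 fell in PDGFB tumors (Psmc5). Leaving out small RNA genes moved the median of all genes to -0.14 in NRAS and -0.12 in PDGFB tumors, and that of the members to 0.34 and 0.33.

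Same-numbered samples of different groups did not deviate together (correlations from -0.499 to 0.158, 2 of 10 over 0.1). For the matches named in titles, the correlation was -0.0829 (normal brain 1 with NRAS tumor 2) and 0.127 (normal brain 3 with PDGFB tumor 1). Deviations from the means of such small groups cannot decide whether samples are paired. With the replicate number as a block, 16 members rose in each model, beside 29.1% of all genes in NRAS tumors and 27% in PDGFB tumors. No paired analysis was possible for the ratios because the samples share only a number.

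Against normal brain, signs turned for few values, of which Psma4 in PDGFB tumors was called in the fit of all samples. Between the models, where most members differed little, up to 10 of the 43 changed sign under 1 alternative (without NRAS tumor 2), and 9 with the series covariate; Psme1 and Psme2 did not. In NRAS tumors, Psmd5 was -0.035 without small RNA genes, and Psmf1 was -0.070 there, -0.026 with the series covariate or within numbers 1834 to 1838, and -0.00815 without NRAS tumor 3. In PDGFB tumors the series covariate gave Psma1 -0.38, Psma4 -0.11, Psma5 -0.070, Psmd1 -0.15, Psmd4 -0.068, Psme1 -0.67 and Psme2 -0.33. With 1 library left out, Psmd10 ran from -0.086 to 0.11, and the difference in the log2 ratio of Psmb10 to Psmb7 from -0.285 to 0.0071. The cause was not tested. Depth in reads is unknown, and normal brain is the smallest group.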

Other observations

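The COP9 signalosome is built on the plan of the 19S lid and removes the ubiquitin-like NEDD8 from ubiquitin ligases. Of 9 of its genes tested, 1 rose and 1 fell in NRAS tumors, and 2 rose and 1 fell in PDGFB tumors. Among all genes tested, 62.3% and 58.5% changed in either direction. Of the 8 lid genes, 4 and 6 rose. Cops6 rose in NRAS tumors (0.40, limma adjusted p = 0.035), and Cops7b (0.48, adjusted p = 0.0080) and Cops3 (0.46, adjusted p = 0.027) rose in PDGFB tumors. Cops7a fell in both models (-0.38 and -0.50, adjusted p = 0.018 and 0.0045). None of the 9 passed between the models. The difference between the signalosome and the lid was not tested.

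Outside the members, the genes whose log2(FPKM + 1) followed the mean profile of the 43 members most closely over the 11 libraries were Gabarap (Pearson r = 0.979), Mrpl13 (0.977), Rbm42 (0.974), Rpn1 (0.970) and Eci1 (0.968). Gabarap encodes an autophagy protein of the ATG8 family, Mrpl13 a mitochondrial ribosomal protein and Rpn1 a subunit of the oligosaccharyltransferase. The points share libraries that fall into 3 groups, and no p is given. In Gabarap, all tumors lay above normal brain, at 158 to 190 FPKM in normal brain, 208 to 288 in NRAS tumors and 191 to 295 in PDGFB tumors.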
